A study of Mus musculus with 12 samples.

Results

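To describe how the chaperone system of mature white adipocytes responded to β-adrenergic stimulation with and without inhibition of lipolysis, the heat shock proteins and cochaperones were followed through the RNA sequencing counts of cultured mouse epididymal white adipocytes (eWAs). Members were taken by symbol, as the Hsp90, Hsp70, Hsp110, small heat shock protein, DnaJ (Hsp40) and Bag families and the mitochondrial chaperonin. The rule found 79 of the 20295 genes in the table, of which 46 act mainly in the cytosol and nucleus, 13 in the endoplasmic reticulum (ER) and 10 in mitochondria. The other 10 act elsewhere, and they include Hspg2, which encodes the matrix proteoglycan perlecan, and Hspb11, which encodes the ciliary transport protein IFT25. Both match the symbol rule without being typical heat shock proteins.

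The cells were mature adipocytes from epididymal fat of lean male C57/BL6J mice, freed with collagenase, collected by floatation, set in a hydrogel and kept for 2 days. There were 4 groups with 3 libraries each. Cells of the DMSO group received vehicle, ISO cells received the pan β-adrenergic agonist isoproterenol for 3 h, Lip cells were given lipase inhibitors, against ATGL and against HSL (Atglistatin and CAY10499 in the study's methods), and Lip+ISO cells received the inhibitors and then ISO. No genotype was varied, and neither the age of the mice nor whether libraries came from separate animals is given in the labels, so p-values measure the spread between these libraries.

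Chaperones of the Hsp70 family bind unfolded stretches of client proteins in cycles of ATP hydrolysis. DnaJ proteins deliver clients and trigger the hydrolysis, whereas Hsp110 and Bag proteins act as nucleotide exchange factors that release them. Hsp90 completes the folding of kinases and receptors, small heat shock proteins hold unfolded chains without ATP, and the mitochondrial chaperonin encloses clients in a chamber. In the cytosol many of these genes answer to heat shock factor 1, which binds repeats of the unit GAA and its complement, while the ER members answer to the unfolded protein response, in part through the ER stress element.

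The promoters below include those of 4 cytosolic members that had large responses to ISO and also held a match to GAANNTTC. The others are those of the 2 most abundant ER members and of the member that fell the most in ISO against DMSO. All run from 250 bases before to 50 bases after the start site, are taken from RefSeq (GRCm38.p6) by symbol, and are read 5′ to 3′ on the strand of the gene. Of 2 entries for Hsph1 the first is shown. Capitals mark GAANNTTC, TTCNNGAA or both in the first 4 and the ER stress element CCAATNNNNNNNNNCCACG, in either direction, in Hspa5 and Hsp90b1. Dnajc28 has no match to any motif searched.
Hsph1, GRCm38.p6 chr5:149636287-149636586, minus strand: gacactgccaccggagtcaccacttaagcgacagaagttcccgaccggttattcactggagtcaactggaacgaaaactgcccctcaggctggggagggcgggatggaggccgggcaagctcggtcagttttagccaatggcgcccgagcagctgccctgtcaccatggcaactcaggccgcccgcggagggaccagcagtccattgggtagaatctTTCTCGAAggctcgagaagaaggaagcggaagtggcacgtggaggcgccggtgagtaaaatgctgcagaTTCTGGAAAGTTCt
Bag3, GRCm38.p6 chr7:128523333-128523632, plus strand: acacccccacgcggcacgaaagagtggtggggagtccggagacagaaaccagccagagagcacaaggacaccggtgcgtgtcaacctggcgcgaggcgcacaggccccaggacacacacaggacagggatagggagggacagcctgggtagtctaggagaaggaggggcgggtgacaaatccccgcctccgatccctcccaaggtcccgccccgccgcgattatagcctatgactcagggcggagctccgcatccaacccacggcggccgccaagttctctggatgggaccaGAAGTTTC
Hspa1a, GRCm38.p6 chr17:34972107-34972406, minus strand: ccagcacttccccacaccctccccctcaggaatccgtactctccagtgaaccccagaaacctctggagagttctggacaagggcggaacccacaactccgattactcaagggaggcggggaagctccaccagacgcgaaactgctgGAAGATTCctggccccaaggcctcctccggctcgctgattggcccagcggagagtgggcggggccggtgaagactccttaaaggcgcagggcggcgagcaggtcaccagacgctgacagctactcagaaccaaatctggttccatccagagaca
Hspb8, GRCm38.p6 chr5:116422815-116423114, minus strand: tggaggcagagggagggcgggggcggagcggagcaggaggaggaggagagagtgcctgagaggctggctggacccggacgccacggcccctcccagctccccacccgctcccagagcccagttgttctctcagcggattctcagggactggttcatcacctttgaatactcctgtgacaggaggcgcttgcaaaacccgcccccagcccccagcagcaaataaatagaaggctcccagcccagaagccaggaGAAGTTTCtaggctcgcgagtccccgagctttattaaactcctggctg
Hspa5, GRCm38.p6 chr2:34771840-34772139, plus strand: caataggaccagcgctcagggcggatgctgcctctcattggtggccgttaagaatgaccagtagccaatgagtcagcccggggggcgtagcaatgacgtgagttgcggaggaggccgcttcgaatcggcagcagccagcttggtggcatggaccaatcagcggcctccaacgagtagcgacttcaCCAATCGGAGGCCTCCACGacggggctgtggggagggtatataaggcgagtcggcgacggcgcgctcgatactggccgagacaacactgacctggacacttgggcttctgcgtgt
Hsp90b1, GRCm38.p6 chr10:86705395-86705694, minus strand: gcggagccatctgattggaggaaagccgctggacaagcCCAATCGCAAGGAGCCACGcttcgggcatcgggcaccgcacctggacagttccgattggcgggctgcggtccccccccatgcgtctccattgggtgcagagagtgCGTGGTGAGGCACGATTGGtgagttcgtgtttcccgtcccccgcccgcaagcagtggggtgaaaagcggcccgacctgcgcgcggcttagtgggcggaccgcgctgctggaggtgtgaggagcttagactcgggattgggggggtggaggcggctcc
Dnajc28, GRCm38.p6 chr16:91618950-91619249, minus strand: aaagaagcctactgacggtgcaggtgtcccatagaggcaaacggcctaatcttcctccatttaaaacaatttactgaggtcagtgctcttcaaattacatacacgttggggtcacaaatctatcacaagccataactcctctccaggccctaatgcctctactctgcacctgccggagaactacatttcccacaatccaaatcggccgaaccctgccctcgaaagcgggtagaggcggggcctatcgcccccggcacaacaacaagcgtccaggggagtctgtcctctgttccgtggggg

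In these windows Hsph1 held a match of 3 units (GAANNTTCNNGAA, read on the other strand) that lay 36 to 48 bases after the start site, with a further TTCNNGAA 33 to 26 bases before it. The shorter GAANNTTC lay 42 to 49 bases after the start in Bag3, 2 to 9 bases after it in Hspb8 and 104 to 97 bases before it in Hspa1a. Among members not shown, Hspa1b held GAANNTTC and rose by 1.14 on the log2 scale in ISO against DMSO. Dnajb1 (1.18) and Dnaja2 (0.82) also rose but held no match to any motif searched. The ER stress element lay 65 to 47 bases before the start in Hspa5, and Hsp90b1 had 2 matches. A promoter entry was found for 64 of the 79 members. The 15 without an entry, which include Hspa8, Hsp90aa1, Hsp90ab1, Hspa9 and Bag4, were not searched. Searching both strands, GAANNTTC was found in 15 of the 64 (23.4%, against 9.04% of 27025 genes), TTCNNGAA in 6 (9.38% against 9.6%) and GAANNTTCNNGAA, which contains both, in Hsph1, Dnajb6, Hspd1 and Hspe1 (6.25% against 0.662%). Hspd1 and Hspe1 run in opposite directions from neighboring starts (mm9 chr1:55144776 and 55144992), so their windows overlap and may share these matches. The ER stress element was found in Hspa5, Hsp90b1 and Dnajc3 (4.69% against 0.137%), and the cAMP response element TGACGTCA in Dnajc27 alone (1.56% against 2.03%). These are matches of letters in a window and not measured binding.

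Each library held 22632220 to 43707557 counts. Levels in CPM (counts scaled to a common library size) below are further scaled for library composition by TMM, errors are SD with n = 3 libraries unless marked SE, and a member was called higher or lower at an adjusted p of 0.05 or less, of any size. Of the 79 members, 73 passed the filter on low counts and were tested, among 13543 genes. Those not tested were Dnajb7, Dnajb8, Dnajc5b, Dnajc5g, Dnajc22 and Hspb3, with at most 8 counts in a library and 0 in every library for Dnajc5g. All 8 adipocyte markers were present in every group, Fabp4 at 16183 CPM and Adipoq at 3129 CPM in DMSO on average. Markers of macrophages summed to between 49.7 and 62.5 CPM in DMSO and between 95.5 and 144 CPM in ISO, and those of fibroblasts to between 388 and 679.6 CPM and between 787 and 1051 CPM. The endothelial sums overlapped, at 99.2 to 186 CPM in DMSO and 176 to 342 CPM in ISO. The 3 hemoglobin genes listed for erythrocytes had counted lengths of 1 to 7 bases, so their 0 counts are uninformative, and Alas2, the other erythrocyte gene, was at 0.0371 to 0.671 CPM over all libraries. Of the markers tested in ISO against DMSO, 5 of 8 of macrophages, 4 of 7 of fibroblasts, 1 of 6 of mesothelium and 0 of 7 of endothelium were called higher. Of the 8 adipocyte markers 0 were called higher and 2 lower, with a median log2 fold change of -0.26. In bulk RNA, fewer cells of a type and less RNA per cell cannot be told apart, and the part of these cells in the member results was not tested.

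In unstimulated cells the members spanned a wide range of levels. Compared per kb of counted length, Hsp90ab1, the constitutive cytosolic Hsp90, was at 495 ± 20.3 CPM per kb in DMSO and Hspa5 (BiP), the Hsp70 of the ER, at 482 ± 120 CPM per kb. These levels did not differ beyond their spread. Hspb8, a small heat shock protein that works with Bag3, followed at 231 ± 14.6 CPM per kb and Hspa9 (mortalin), the Hsp70 of mitochondria, at 227 ± 8.12 CPM per kb, again within their spread. Bag1, an exchange factor, was at 200.2 ± 11.9 CPM per kb and Hsp90b1 (GRP94), the Hsp90 of the ER, at 184 ± 28.2 CPM per kb, whose ranges also overlap. Bag3 at 132 ± 2.45, the constitutive Hsp70 Hspa8 at 118 ± 2.22, the Hsp110 protein Hspa4 at 106 ± 6.04 and Bag6 at 96.0 ± 4.24 CPM per kb completed the 10 highest, each apart from the next by more than the larger of their SDs. Below them in the ER came Dnajb9 at 69.3 ± 7.16, Dnajb12 at 35.4 ± 0.795 and Dnajc14 at 34.0 ± 2.27 CPM per kb, the last 2 within their spread. In mitochondria Hspe1 followed at 75.8 ± 4.33, Hspd1 at 70.9 ± 2.62, Dnajc15 at 62.3 ± 5.48 and Dnaja3 at 34.7 ± 3.31 CPM per kb. Elsewhere Hspg2 led at 53.8 ± 12.7 CPM per kb, ahead of Dnajc5, Dnajc25, Dnajc13 and Hspb11. In Lip+ISO the order of means differed, with Hspa5 at 849.7 ± 191, Hsp90ab1 at 651 ± 35.1, Bag3 at 507 ± 54.9 and Hspb8 at 467 ± 49.5 CPM per kb. Bag3 and Hspb8 lay within their spread there. In Lip+ISO replicate 1 Hspa5 (1686 CPM) was below Hsp90ab1 (1733 CPM). The classical inducible pair Hspa1a and Hspa1b stood low, at 2.79 ± 1.29 and 9.66 ± 1.75 CPM in DMSO.

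**Figure D1:**
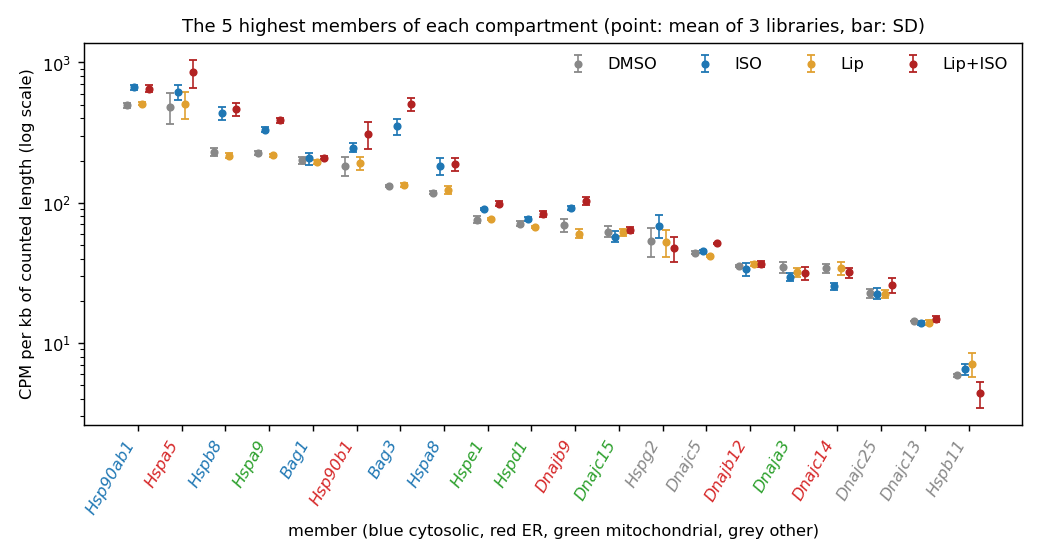
Levels of the 5 highest members of each compartment, as mean CPM per kb of counted length with SD over 3 libraries, in the 4 groups (log axis, members ordered by their level in DMSO). Hsp90ab1 and Hspa5 lie highest in DMSO, and Bag3 rises from 132 CPM per kb in DMSO to 507 CPM per kb in Lip+ISO.

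Summed over all 79 members, the level was 9284, 9689 and 10207 CPM in the 3 DMSO libraries and 13259, 12629 and 12995 CPM with ISO. It was 9479, 9498 and 10241 CPM with Lip and 13847, 14006 and 15671 CPM with Lip+ISO. The ISO groups thus lay above both groups without ISO in every library, and DMSO and Lip overlapped. The cytosolic sum was 4897 ± 144 CPM in DMSO, 7085 ± 493 CPM in ISO, 4918 ± 112 CPM in Lip and 7846 ± 301 CPM in Lip+ISO. The mitochondrial sum went from 1181 ± 42.1 CPM in DMSO to 1498 ± 51.8 CPM in ISO and from 1129 ± 15.4 CPM in Lip to 1687 ± 67.1 CPM in Lip+ISO. The ER sum was 2526 ± 399 CPM in DMSO, 3041 ± 231 CPM in ISO, 2604 ± 362 CPM in Lip and 3899.6 ± 708 CPM in Lip+ISO, with a wider spread that is described with the ER members.

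ISO against DMSO asks how the members responded to 3 h of β-adrenergic stimulation while lipolysis was free to run. Of the 73 tested members 18 were higher and 4 lower, against 12.3% and 13.9% of all genes tested, so that 24.7% of the members were higher. The cytosolic members held 15 of the higher calls and 1 of the lower ones among 43 tested, the ER members 1 and 2 of 13, and the mitochondrial members 2 and 1 of 10. No member of the other compartments was called. The median log2 fold change was 0.12 over all members and 0.18 over the cytosolic ones, against 0.00 over all genes tested. With library totals alone in place of TMM, 13 members were higher and 7 lower. That scaling moved the median of all genes to -0.04, and shares of all genes called under it were not counted. Counting only calls of 1 or more on the log2 scale, 5 members were higher (Hspa1a, Hsph1, Bag3, Dnajb1 and Hspa1b, against 5.68% of all genes) and 1 was lower (Dnajc28, against 1.8%).

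Lip+ISO against Lip asks the same with both lipases inhibited. Here 23 members were higher and 8 lower, against 11.5% and 15.8% of all genes, so that 31.5% of the members were higher. By compartment these were 14 and 5 of 43 cytosolic, 4 and 1 of 13 ER, 3 and 1 of 10 mitochondrial and 2 and 1 of 7 other members. The median log2 fold change of the members was 0.06, and it was -0.05 with library totals alone, a scaling that moved the median of all genes by a similar step to -0.12. No called member changed direction under that scaling or under DESeq2 size factors. Counting again only those of 1 or more, 6 members were higher (4.19% of all genes) and 2 lower (3.16%). Across both responses, 14 members were higher in each, 3 were lower in each, and 0 were called in opposite directions. Such shared and opposite calls were not counted over all genes, so these counts do not show a trait of the members.

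**Figure D2:**
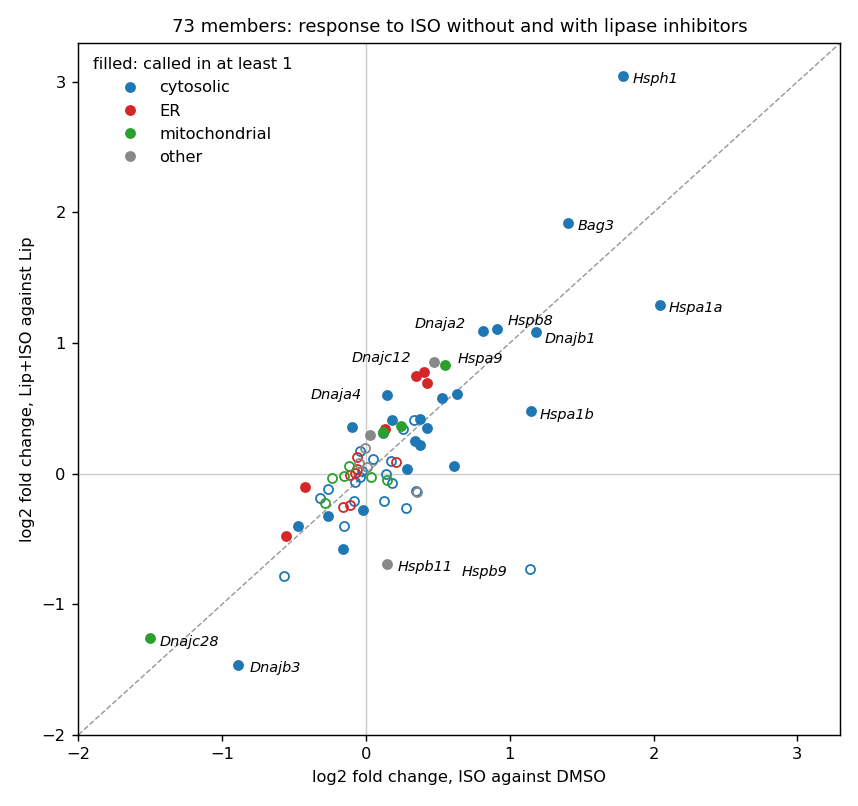
Log2 fold change of the 73 tested members in ISO against DMSO (horizontal axis) and in Lip+ISO against Lip (vertical axis), colored by compartment, with filled points for members called in at least 1 of these comparisons and the dashed line marking equal change. Hsph1 lies farthest above the line, at 1.79 and 3.04, and Dnajc28 at the lower left at -1.5 and -1.26.

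Among the cytosolic members, Hsph1 (Hsp105, an Hsp110 exchange factor; mm9 chr5:150419420-150438890, minus strand) had the lowest adjusted p of the 73 members in both responses to ISO. Its level was 65.1, 71.3 and 73.1 CPM in DMSO, 250.3, 255 and 219 CPM in ISO, 61.5, 66.3 and 80.1 CPM in Lip, and 493, 547 and 675 CPM in Lip+ISO. All ISO libraries lay above every library without ISO, all Lip+ISO libraries lay above all ISO libraries, and DMSO and Lip overlapped. The log2 fold change was 1.79 ± 0.13 (SE, adjusted p = 1.05e-06) in ISO against DMSO and 3.04 ± 0.13 (SE, adjusted p = 7.15e-09) in Lip+ISO against Lip, a 3.46-fold and an 8.25-fold increase.

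Bag3, the exchange factor that directs clients of Hsp70 and Hspb8 to selective autophagy (mm9 chr7:135667097-135690493, plus strand), stood at 347, 345 and 335 CPM in DMSO and at 1045, 850.4 and 831 CPM in ISO. With the inhibitors it stood at 337, 344 and 361 CPM in Lip and at 1287, 1187 and 1468 CPM in Lip+ISO. As for Hsph1, the Lip+ISO libraries lay above the ISO libraries, and both lay above all others. The log2 fold change was 1.41 ± 0.10 (SE, adjusted p = 1.25e-06) without and 1.92 ± 0.11 (SE, adjusted p = 4.83e-08) with the inhibitors. Its partner Hspb8 was at 449, 409 and 399 CPM in DMSO, 889, 743 and 737 CPM in ISO, 408, 393 and 374 CPM in Lip and 942, 764 and 832 CPM in Lip+ISO. The ISO and Lip+ISO libraries of Hspb8 overlapped with each other and lay above all others, with log2 fold changes of 0.91 (adjusted p = 3.42e-05) and 1.11 (adjusted p = 4.28e-06).

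The DnaJ proteins of class A and B that pair with cytosolic Hsp70 differed among themselves. Dnaja2 was at 208 to 233 CPM in DMSO, 383 to 399 CPM in ISO, 199 to 225 CPM in Lip and 442 to 478 CPM in Lip+ISO, in 4 groups of which only DMSO and Lip overlapped. It rose by 0.82 (adjusted p = 8.06e-06) and 1.09 (adjusted p = 3.76e-07) on the log2 scale. Dnajb1 (Hsp40), the partner through which Hsp70 also restrains heat shock factor 1, was at 88.9, 96.3 and 98.5 CPM in DMSO, 234, 218 and 191 CPM in ISO, and 143, 196 and 246 CPM in Lip+ISO. It rose by 1.18 (adjusted p = 0.000158) and 1.08 (adjusted p = 0.000191), and ISO and Lip+ISO overlapped. Dnajb6, which suppresses aggregation, rose by 0.37 (adjusted p = 0.0399) and 0.42 (adjusted p = 0.0224).

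Dnaja1 rose without the inhibitors by 0.34 (adjusted p = 0.034), although its DMSO and ISO libraries overlapped, and had a log2 fold change of 0.25 with them (adjusted p = 0.108, or 0.0196 when replicate numbers entered as a block). Its gene overlaps Smu1 on the other strand, and nothing states that the counting used strand, so its reads are uncertain. Dnaja4 went the other way, with 0.15 without the inhibitors (adjusted p = 0.277) and a rise of 0.60 with them (adjusted p = 0.000359). It was at 20.7, 19.2 and 20.6 CPM in DMSO, 20.9, 23.1 and 22.9 CPM in ISO, 18.1, 18.8 and 20.8 CPM in Lip and 32.0, 27.6 and 28.2 CPM in Lip+ISO. The Lip+ISO libraries lay above all others, the ISO libraries lay slightly above those of DMSO and Lip, and DMSO and Lip overlapped. Dnajb4 fell with ISO in the presence of the inhibitors, by 0.32 (adjusted p = 0.0477), and was at -0.26 without them (adjusted p = 0.0983, or 0.0224 with the block). Dnajb5 fell with them by 0.58 (adjusted p = 0.0216) and Dnajb3 by 1.46 (adjusted p = 0.007), the latter at only 0.526 to 3.10 CPM in all libraries and within the Ugt1a locus on the other strand.

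The constitutive Hsp70 and both cytosolic Hsp90 genes rose in each response. Hspa8 was at 251, 252 and 243 CPM in DMSO, 407, 423 and 327 CPM in ISO, 251, 248 and 280.4 CPM in Lip and 345, 418 and 426 CPM in Lip+ISO. It rose by 0.63 (adjusted p = 0.00103) and 0.61 (adjusted p = 0.000946). Hsp90aa1, the stress-inducible Hsp90, rose by 0.53 (adjusted p = 0.000652) and 0.58 (adjusted p = 0.000237), and Hsp90ab1 by 0.42 (adjusted p = 0.00151) and 0.35 (adjusted p = 0.00415). In each of these 3 genes the libraries with ISO lay above those without, and ISO and Lip+ISO overlapped.

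Hspa1a was at 1.33, 3.23 and 3.80 CPM in DMSO, 9.16, 9.95 and 15.1 CPM in ISO, 2.34, 2.96 and 3.71 CPM in Lip and 9.66, 5.37 and 7.15 CPM in Lip+ISO. It rose by 2.04 ± 0.36 (SE, adjusted p = 0.00122) and 1.29 ± 0.35 (SE, adjusted p = 0.015), the largest log2 fold change of any member in ISO against DMSO but at a low level. The second of these calls was lost without Lip replicate 1, Lip+ISO replicate 1 or replicate 2 of every group. Hspa1b rose by 1.14 (adjusted p = 0.000213) and 0.48 (adjusted p = 0.0381). The genes are near-identical copies whose reads cannot be assigned with certainty, and their sum was 12.4 ± 2.89 CPM in DMSO, 32.7 ± 6.25 CPM in ISO, 14.1 ± 2.13 CPM in Lip and 22.8 ± 2.69 CPM in Lip+ISO. Hspa2, another Hsp70, was at 0.18 without the inhibitors (adjusted p = 0.29) and rose by 0.41 with them (adjusted p = 0.0237). Hspa12b, a distant Hsp70 relative found in endothelium, rose by 0.61 without them (adjusted p = 0.0479) and was at 0.06 with them (adjusted p = 0.876). Beside it, the median log2 fold change of the 7 endothelial markers was 0.95 in ISO against DMSO, none called, and their part in it was not tested.

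The remaining cytosolic cochaperones were mixed. Hspa4, an Hsp110 protein, rose by 0.37 (adjusted p = 0.00577) and was at 0.22 with the inhibitors (adjusted p = 0.0722, or 0.00858 with the block). Dnajc2, the ribosome-bound zuotin homolog, rose by 0.28 without the inhibitors (adjusted p = 0.043) and was at 0.04 with them (adjusted p = 0.827). Bag4 fell by 0.48 (adjusted p = 0.0149) and 0.40 (adjusted p = 0.0317), and Dnajc7, which binds both Hsp70 and Hsp90, fell with the inhibitors by 0.28 (adjusted p = 0.00749). Bag5 rose with them by 0.36 (adjusted p = 0.0162), with overlapping libraries. Bag1 was within 0.05 and 0.11 of no change (adjusted p = 0.689 and 0.382), and Hspb1 (Hsp25), a small heat shock protein, had 0.18 and -0.07 (adjusted p = 0.411 and 0.789).

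**Figure D3:**
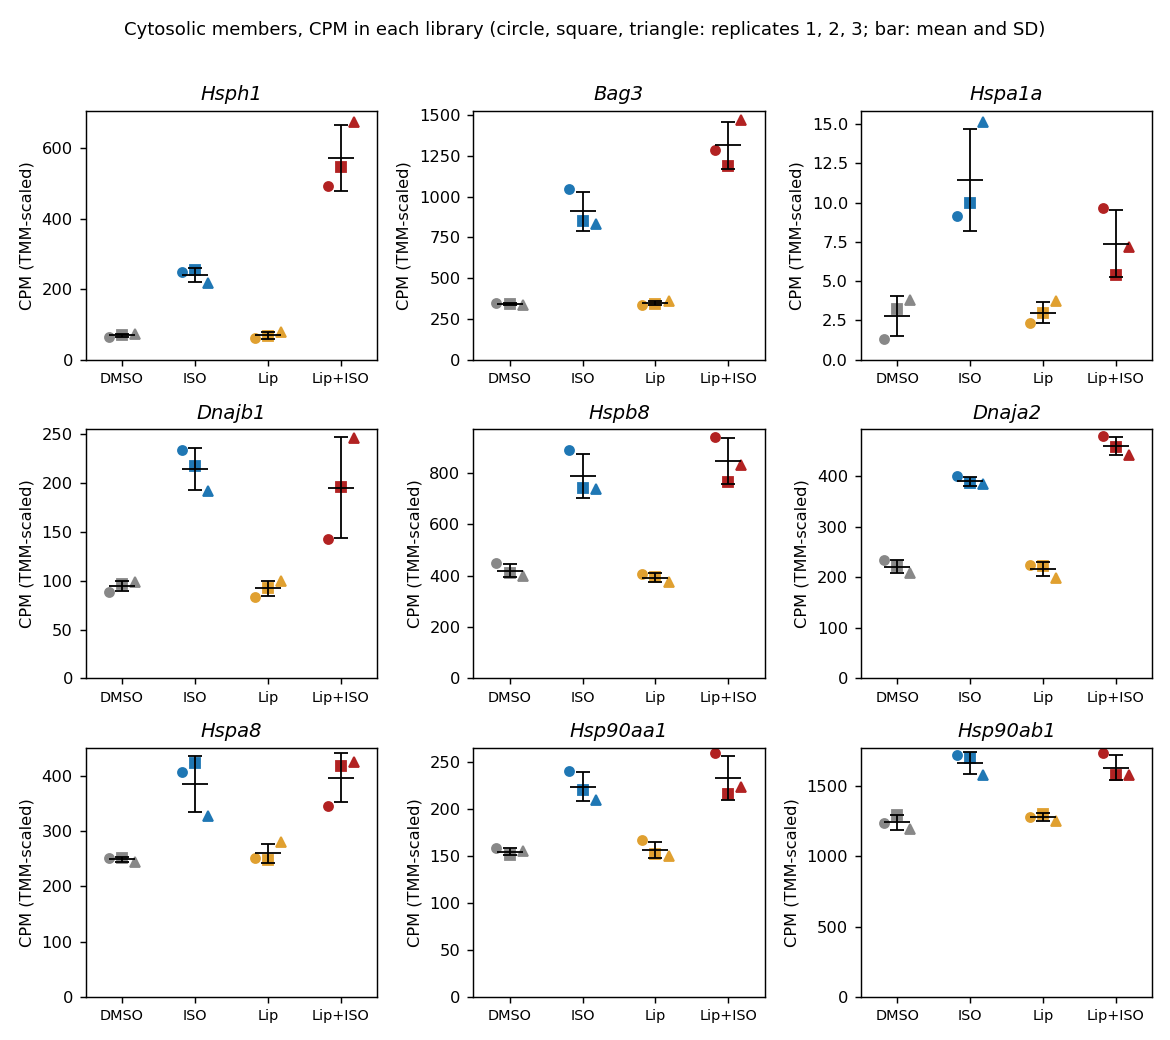
TMM-scaled CPM of 9 cytosolic members in each of the 12 libraries by group (point shapes mark replicate numbers, bars the mean and SD, axes start at 0). Hsph1 and Bag3 are highest in Lip+ISO, at 493 to 675 CPM and 1187 to 1468 CPM, while the ISO and Lip+ISO libraries of Dnajb1, Hspb8, Hspa8, Hsp90aa1 and Hsp90ab1 overlap.

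In the ER, Hspa5 was at 929.5, 1201 and 1535 CPM in DMSO, 1401, 1504 and 1769 CPM in ISO, 1037, 1213 and 1599 CPM in Lip and 1686, 2124 and 2650 CPM in Lip+ISO. The libraries numbered 1 were lowest and those numbered 3 highest in all 4 groups, so that the groups DMSO and ISO overlapped although each ISO library was above the DMSO library of its number. The log2 fold change in ISO against DMSO was 0.35 ± 0.21 (SE, adjusted p = 0.234), where the block gave an adjusted p of 0.00244. With the inhibitors Hspa5 rose by 0.75 ± 0.21 (SE, adjusted p = 0.0176, or 1.26e-05 with the block), a call that was lost without Lip replicate 1, Lip replicate 2, Lip+ISO replicate 3 or replicate 2 of every group. Hsp90b1 had the same order of numbers, at 424, 517 and 579 CPM in DMSO, 631, 679 and 731 CPM in ISO, 472, 529.7 and 582 CPM in Lip and 656, 889 and 1015 CPM in Lip+ISO. Its log2 fold change was 0.42 without the inhibitors (adjusted p = 0.0587, or 0.00112 with the block) and it rose by 0.69 with them (adjusted p = 0.00461), with no overlap between the groups compared in either case.

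Dnajb9 (ERdj4), a cofactor of Hspa5, was the ER member called higher in both responses. It was at 114, 139 and 135 CPM in DMSO, 167, 167 and 178 CPM in ISO, 104, 119.7 and 114 CPM in Lip and 179, 193 and 205 CPM in Lip+ISO. It rose by 0.40 (adjusted p = 0.00587) and 0.77 (adjusted p = 3.29e-05). Dnajb11 (ERdj3), which delivers clients to Hspa5, was at 0.13 without the inhibitors (adjusted p = 0.213) and rose by 0.34 with them (adjusted p = 0.00428). Dnajc3 (p58IPK) had 0.13 with the inhibitors (adjusted p = 0.29), and Dnajc10 (ERdj5), a reductase, had 0.21 without (adjusted p = 0.167, or 0.011 with the block) and 0.09 with them. The ER-membrane members Dnajc14 and Dnajc16 fell without the inhibitors, by 0.43 (adjusted p = 0.00583) and 0.55 (adjusted p = 0.0214), and Dnajc16 also fell with them by 0.47 (adjusted p = 0.0403). Dnajc14 overlaps Ormdl2 on the other strand.

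In mitochondria, Hspa9, which pulls imported proteins into the matrix and folds them, was at 679.5, 673 and 719 CPM in DMSO, 1032, 966 and 1033 CPM in ISO, 644, 672 and 667 CPM in Lip and 1175, 1126 and 1232 CPM in Lip+ISO. It rose by 0.55 (adjusted p = 0.000145) and 0.83 (adjusted p = 2.69e-06), and the ISO and Lip+ISO libraries did not overlap, although their difference of 0.22 was not called (adjusted p = 0.0788). The chaperonin subunit Hspe1 (Hsp10) rose by 0.24 (adjusted p = 0.0192) and 0.37 (adjusted p = 0.00123). Its partner Hspd1 (Hsp60) was at 0.12 without the inhibitors (adjusted p = 0.211) and rose by 0.32 with them (adjusted p = 0.00278). Dnaja3 (Tid1), the main DnaJ partner of Hspa9, was at -0.23 (adjusted p = 0.102, or 0.00913 with the block) and -0.03 (adjusted p = 0.849), so it was not called with Hspa9. Dnajc15 and Dnajc19, which act at the import motor, had log2 fold changes of -0.12 and 0.03 in ISO against DMSO and of 0.06 and -0.02 with the inhibitors, none called.

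Dnajc28 (mm9 chr16:91614502-91619244, minus strand), a little-studied mitochondrial J-domain gene, was the member that fell the most in ISO against DMSO. In Lip+ISO against Lip the low-level Dnajb3 fell more. Dnajc28 was at 15.6, 13.7 and 13.0 CPM in DMSO, 5.55, 4.59 and 4.84 CPM in ISO, 15.0, 11.7 and 12.1 CPM in Lip and 5.26, 4.78 and 6.16 CPM in Lip+ISO. Every library with ISO lay below every library without it, and ISO and Lip+ISO overlapped. It fell by 1.5 ± 0.16 (SE, adjusted p = 1.95e-05) and by 1.26 ± 0.15 (SE, adjusted p = 4.90e-05) on the log2 scale.

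**Figure D4:**
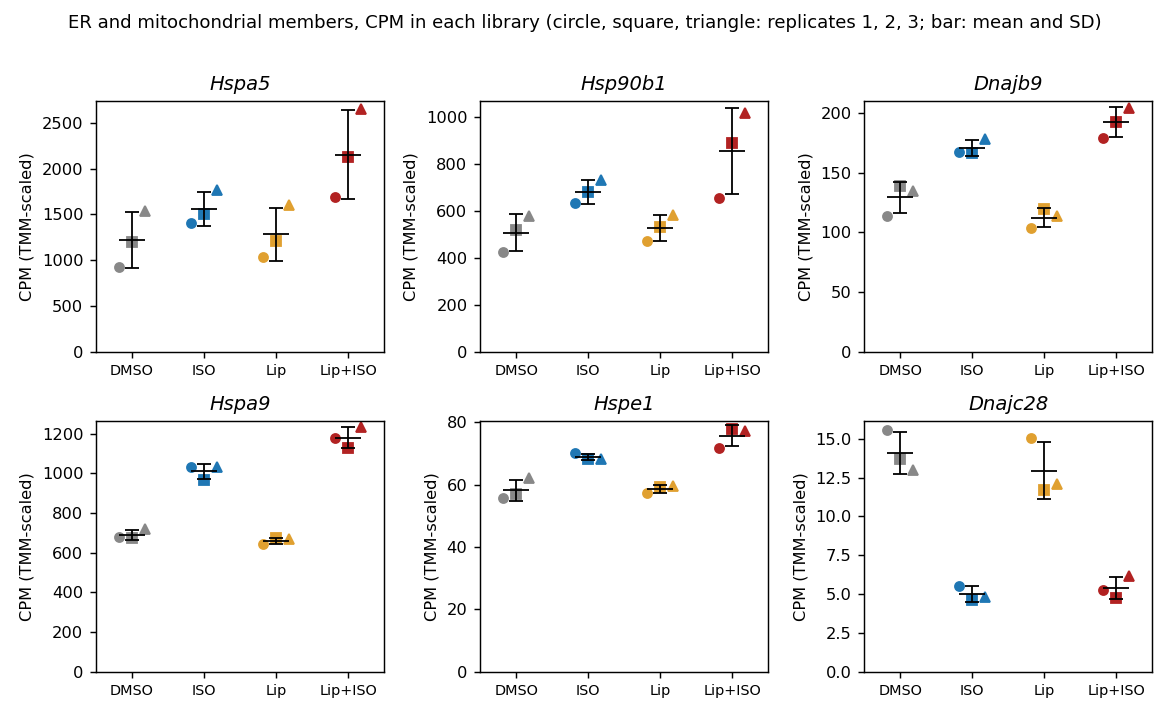
TMM-scaled CPM of 3 ER members (upper row) and 3 mitochondrial members (lower row) in each library by group (point shapes mark replicate numbers, bars the mean and SD, axes start at 0). Hspa5 and Hsp90b1 keep the order of replicate numbers in every group, from 929.5 to 1535 CPM for Hspa5 in DMSO, and Dnajc28 is at or below 6.16 CPM in all libraries with ISO.

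Of the members elsewhere, Dnajc5 (CSPα), a chaperone of synaptic and secretory vesicles, rose with ISO in the presence of the inhibitors by 0.30 (adjusted p = 0.00242), and Dnajc12, a cofactor of aromatic amino acid hydroxylases, by 0.85 (adjusted p = 0.00515). Hspb11 fell by 0.69 (adjusted p = 0.0343), at 1.91 to 4.47 CPM in all libraries. Without the inhibitors these 3 genes had 0.03, 0.47 and 0.14, none called. Hspg2 was at 573, 781 and 933 CPM in DMSO and 903, 845 and 1178 CPM in ISO, and was not called (log2 fold change 0.36, adjusted p = 0.222, or 0.0164 with the block). Beside it, 4 of 7 fibroblast markers were higher in ISO than in DMSO, as given above, and their part in the level of Hspg2 was not tested.

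The replicate number as a block, supported for these comparisons by the correlation of same-numbered libraries, raised the counts to 24 higher and 8 lower for ISO against DMSO (18.8% and 19.6% of all genes) and to 26 and 9 for Lip+ISO against Lip (15.5% and 20.1%). The members gained in the first were Bag2, Dnajc8, Dnajc10, Hsp90b1, Hspa5 and Hspg2, which were higher, and Dnaja3, Dnajb4, Dnajc30 and Hspa4l, which were lower. Leaving replicate 2 out of every group lowered the higher calls from 18 to 11 in ISO against DMSO and from 23 to 11 in Lip+ISO against Lip. Hsph1, Bag3, Hspb8, Dnaja2, Dnajb1, Hspa8, Hsp90aa1, Hspa9 and Dnajc28 were called in both responses in each of 15 fits that left libraries out. The calls of Dnajc2, Hspa12b and Dnajb6 in ISO against DMSO were lost in 13, 11 and 9 of these fits, and those of Dnajb4, Hspa1b and Dnajc16 in Lip+ISO against Lip in 12, 10 and 9. Between 4 and 7 of the fits lost the calls of Hspe1, Dnaja1, Bag4 and Dnajc16 in the first comparison and of Hspa5, Hspb11, Hspa2, Dnajb6, Bag4, Bag5 and Dnajb5 in the second.

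The inhibitors alone, Lip against DMSO, called 0 members higher and 0 lower by edgeR, against 0.00738% and 0.0443% of all genes. DESeq2 also called 0 members, against 22 higher and 35 lower of all genes. By edgeR 1 of the 73 had an unadjusted p under 0.05 (1.37%, against 4.3% of all genes). The median log2 fold change of the members was 0.00. That member, named after its value was seen, was Dnajb9 at -0.20 ± 0.09 (SE, adjusted p = 1). The log2 fold change was -0.01 ± 0.13 (SE) for Hsph1, 0.02 ± 0.10 (SE) for Bag3 and 0.07 ± 0.21 (SE) for Hspa5.

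Lip+ISO against ISO asks what inhibiting lipolysis changed in stimulated cells. This comparison shares its libraries with both responses to ISO. Here 6 members were higher and 2 lower, against 4.36% and 4.59% of all genes. Beside these, 4 of 7 fibroblast markers were lower (median -0.79), the medians of endothelial and macrophage markers were -0.77 and -0.43 with none called, and the part of these cells in the member results was not tested. Hsph1 rose by 1.24 ± 0.13 (SE, adjusted p = 6.21e-05), a 2.37-fold increase, and Bag3 by 0.53 ± 0.10 (SE, adjusted p = 0.00589). Hspa2 rose by 0.48 (adjusted p = 0.0266), Bag5 by 0.40 (adjusted p = 0.0235), Dnaja4 by 0.39 (adjusted p = 0.0215) and Dnajc14 by 0.33 (adjusted p = 0.0498). Mitochondrial Dnajc11, a component of the cristae-organizing complex, fell by 0.31 (adjusted p = 0.00842) and Dnajc7 by 0.24 (adjusted p = 0.0392). Hsph1 alone was called in each of 15 fits that left libraries out, and Bag3 was not called without replicate 2 or without replicate 3 of every group. Hspa1a and Hspa1b had -0.63 and -0.47 (adjusted p = 0.289 and 0.0841), and Hspa5 had 0.47 (adjusted p = 0.196).

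The interaction, the response to ISO with the inhibitors minus that without, tests whether the responses differed. It called 1 member higher and 0 lower by edgeR, against 0.901% and 0.724% of all genes, and 1 of 7 fibroblast markers was lower. The member called was Hsph1, at 1.25 ± 0.18 (SE, adjusted p = 0.00367), and its call was lost without replicate 2 of every group (adjusted p = 0.135). DESeq2 called 5 members higher (Hsph1, Bag3, Dnaja4, Dnajc5 and Hspa9, adjusted p = 9.43e-09 to 0.0445) and 0 lower, against 338 and 241 of the 13543 genes tested. By edgeR at an unadjusted p under 0.05 the counts were 10 and 6 (21.9% of the members), against 874 and 994 (13.8%) of all genes. For Bag3 the interaction was 0.51 ± 0.14 (SE, adjusted p = 0.113), for Dnaja4 0.46 ± 0.13 (SE, adjusted p = 0.126), for Hspa5 0.40 ± 0.29 (SE, adjusted p = 0.616) and for Hspa1a -0.75 ± 0.49 (SE, adjusted p = 0.562). By edgeR without the replicate block, no member called in only 1 of the responses was shown to differ between them. Dnaja4 and Dnajc5, called only with the inhibitors, were among the DESeq2 calls. With the block, edgeR called 4 members higher and 2 lower in the interaction, and the share of all genes was not counted for it.

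Outside the rule, 77 further genes of the chaperone network were listed, 75 of them tested. In ISO against DMSO 13 were higher and 2 lower, against 12.3% and 13.9% of all genes. The TRiC chaperonin and prefoldin, which fold actin and tubulin, held 8 of the higher calls among 14 genes, with Pfdn2 at 0.41 (adjusted p = 0.0361) as the largest, and the calnexin gene Canx of the ER rose by 0.38 (adjusted p = 0.00208). Hspbap1, which encodes a protein that binds Hspb1, fell by 0.59 (adjusted p = 0.0132) and the mitochondrial unfoldase gene Clpx by 0.40 (adjusted p = 0.00974). Of 16 Hsp90 cochaperones 3 were higher and 0 lower.

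In Lip+ISO against Lip 15 of the 75 were higher and 5 lower, against 11.5% and 15.8% of all genes. Hspbap1 fell by 1.28 (adjusted p = 4.63e-05), Creld2, an ER stress-inducible folding factor, rose by 0.85 (adjusted p = 0.0165) and Syvn1 (Hrd1), the ubiquitin ligase of ER-associated degradation, by 0.71 (adjusted p = 0.025). The ER folding list held 5 higher and 1 lower of 22, and TRiC and prefoldin 5 and 0 of 14. In Lip+ISO against ISO only Syvn1 (1.07, adjusted p = 0.00745) and Hspbap1 (-0.59, adjusted p = 0.034) were called. The transcript of the heat shock factor gene Hsf1 was at -0.11 in ISO against DMSO (adjusted p = 0.438) and fell by 0.40 in Lip+ISO against Lip (adjusted p = 0.00813), and Hsf2 was not called in any comparison. For Lip against DMSO and for the interaction 0 of the 75 were called by edgeR. With the replicate block 3 were higher and 1 lower in the interaction, where the share of all genes was not counted.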

How the data were processed

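RNA was sequenced from 12 cultures of mouse epididymal white adipocytes in 4 groups of 3, as named and numbered in the titles. The authors aligned reads to mm9 with STAR 2.4.2a and used HOMER and iRNA-seq to count them over RefSeq genes, and deposited raw counts with no normalization. HOMER accepted 1 read per position and length. Totals were 22632220 to 43707557 counts. The study's figure legend names SR-3420 as the stimulus, while its text and the titles name ISO, which was used here. Members were taken by a pattern of symbols and assigned to compartments from general knowledge. The members, the lists and the tests were chosen with earlier results of these data known.

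Genes were filtered with filterByExpr (13543 kept), scaled by TMM (factors 0.924 to 1.07) and tested in edgeR 4.0.16 (R 4.3.3) by two-sided quasi-likelihood F-tests, with 1 mean per group over all 12 libraries and Benjamini-Hochberg adjustment over all genes tested. The common BCV (biological coefficient of variation) came to 0.163. Alternatives were library totals alone, DESeq2 1.42.0 size factors and its Wald test, no filter on low counts, only the groups compared, the replicate number as a block, a minimum log2 change of 1, and leaving out each library and each replicate number (15 fits). Same-numbered libraries deviated together from their group means: 17 of 18 correlations exceeded 0.1 (median 0.274). The numbers were therefore taken to pair libraries across the groups, in the replicate block alone. The main tests ignored this pairing, so their calls can differ from those with the block. The lowest correlation was between ISO and Lip+ISO, which had 0.102, 0.311 and 0.0373 for numbers 1, 2 and 3. The pairing comes from the data, since the labels do not say what a number marks. The paper states that its RNA sequencing came from independent experiments, without tying them to these numbers. Replicates differed beyond sampling noise, and none was counted as a duplicate.

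The text names 27 members fixed by role, up to 8 further called members per comparison by size of log2 fold change, Hspg2 and Hspb11, Hsf1, Hsf2 and up to 3 called network genes per comparison, and the 5 highest members per compartment. Members gained with the block, or called by DESeq2 or unadjusted, are named beyond this rule, after their values were seen. Genes overlapping another gene, and Hspa1a with Hspa1b, are uncertain because nothing states that counting used strand or how shared reads were assigned.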

Additional observations from a re-analysis of the deposited data

Results flagged for a closer look

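Whether lipases were inhibited made a difference to how Hsph1 responded to ISO, by a test of the difference itself. It was 3.04 on the log2 scale with the inhibitors and 1.79 without, a difference of 1.25 ± 0.18 (SE, edgeR interaction, adjusted p = 0.00367), and every Lip+ISO library (493 to 675 CPM) lay above every ISO library (219 to 255 CPM). Without replicate 2 of every group the adjusted p was 0.135. Its cause was not tested.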

How the results depend on the processing

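Each of the 170 values of named members kept its direction wherever it was called, and 117 sign changes over the alternatives were among values not called. The replicate block lost no call of a member and made none in Lip against DMSO. With the block, ISO against DMSO had 8 members lower in place of 4. Lip+ISO against ISO had 14 higher and 7 lower in place of 6 and 2, and the interaction had 4 higher and 2 lower in place of 1 and 0. Shares of all genes with the block were not counted for Lip+ISO against ISO or the interaction. With library totals alone, 7 members were lower in ISO against DMSO, and the share of all genes was not counted. At a log2 fold change of at least 1, the counts higher and lower were 5 and 1 in ISO against DMSO, 6 and 2 in Lip+ISO against Lip, and 1 and 0 in Lip+ISO against ISO. Fitting only the groups compared gave 5 lower in Lip+ISO against Lip, and 2 higher and 0 lower in Lip+ISO against ISO. DESeq2 gave 11 higher in Lip+ISO against ISO and 5 higher in the interaction, against 905 and 338 of the 13543 genes tested. Its size factors, and no filter on low counts, each gave 1 lower in Lip+ISO against ISO. Fits that left libraries out gave 11 to 19 higher and 2 to 7 lower in ISO against DMSO, 11 to 23 and 2 to 8 in Lip+ISO against Lip, 1 to 7 and 0 to 3 in Lip+ISO against ISO, and 0 to 2 and 0 to 1 in the interaction. The lowest higher counts came without replicate 2 of every group, and in Lip+ISO against ISO also without replicate 3. With 3 libraries a group, small changes and members at a few CPM, such as Dnajb3 and Hspa1a, are least precise.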
